A study of Mus musculus with 6 samples.

Results

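A group of 7 genes was followed through nuclei of mouse white adipose tissue: Dapl1, Lef1, Tcf7, Satb1, Il7r, Npas4 and Tmie. They are the rows with these symbols among 56980 listed genes, with 1 row for each symbol. They were chosen on their raw counts in CD4 and CD8 T nuclei of subcutaneous fat at 24 against 2 months, so their values in that comparison are given as a description, without a test. The data are single-nucleus RNA sequencing of 6 libraries from female C57BL/6J mice. Subcutaneous fat of the groin (SAT) gave 2 libraries at 2 months of age and 2 at 24 months, and gonadal visceral fat (VAT) gave 2 libraries at 24 months. The labels name no allele and no treatment. The labels give 24 months where the study's text gives 26, and they do not say whether libraries came from separate mice. The question was how RNA of these genes in T nuclei differed with age, and whether it also differed in nuclei that played no part in choosing them.

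As background, a naive T cell is one that has left the thymus and has not yet met its antigen. Its resting state is held by transcription factors of the TCF/LEF family, by FOXO and KLF factors and by signals of the cytokine interleukin 7, and it recirculates through lymph nodes with homing receptors such as Ccr7. On activation many of these genes are switched off, and effector and tissue-resident memory cells carry other factors such as Id2, Tbx21 and Runx proteins. The fat of the mouse groin surrounds a lymph node, and lymph nodes hold many naive T and B cells.

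All 7 genes were placed on GRCm39 with GENCODE M39. Dapl1 lies on the plus strand of chromosome 2 from 59314997 to 59335368 and Lef1 on the plus strand of chromosome 3 from 130903919 to 131018005. The other 5 genes lie on minus strands, Tcf7 on chromosome 11 from 52143107 to 52174619, Satb1 on chromosome 17 from 52043114 to 52140622, Il7r on chromosome 15 from 9505874 to 9530262, Npas4 on chromosome 19 from 5034382 to 5040344, and Tmie on chromosome 9 from 110694740 to 110709582. The genes span from 6.0 kb (Npas4, 8 exons) to 114.1 kb (Lef1, 8 exons), and nuclear libraries also count RNA from introns. Dapl1, Il7r and Npas4 overlap no other annotated gene. On the opposite strand, the span of Als2cl reaches over exon sequence of Tmie and that of the long noncoding RNA A630014C17Rik over exon sequence of Tcf7. Likewise Lef1os1 reaches over exon sequence of Lef1 and Gm6934 over that of Satb1. Gm36931, on the same strand as Satb1, also reaches over exon sequence of Satb1. Whether exons of both genes of a pair meet was not compared. Since the sources used here do not state that counting used the strand, reads from where such pairs overlap cannot be told apart.

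The 250 bases before the start of the Ensembl canonical transcript are shown for Dapl1, Lef1 and Tcf7, whose levels were lower together at 24 months, because the binding motifs of naive-state factors were searched there. Capitals mark the motif found, and each window reads 5′ to 3′ on the strand of its gene, at chr2:59314747-59314996 (plus), chr3:130903669-130903918 (plus) and chr11:52174620-52174869 (minus) of GRCm39.
Dapl1: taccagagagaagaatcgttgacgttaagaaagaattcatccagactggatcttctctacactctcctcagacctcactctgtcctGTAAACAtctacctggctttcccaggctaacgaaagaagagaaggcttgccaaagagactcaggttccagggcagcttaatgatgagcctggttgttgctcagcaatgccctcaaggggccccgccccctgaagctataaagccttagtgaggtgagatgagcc
Lef1: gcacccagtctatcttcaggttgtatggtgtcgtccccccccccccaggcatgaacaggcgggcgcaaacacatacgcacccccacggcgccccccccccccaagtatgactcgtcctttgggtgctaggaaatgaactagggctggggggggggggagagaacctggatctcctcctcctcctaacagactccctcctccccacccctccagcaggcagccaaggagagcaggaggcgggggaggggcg
Tcf7: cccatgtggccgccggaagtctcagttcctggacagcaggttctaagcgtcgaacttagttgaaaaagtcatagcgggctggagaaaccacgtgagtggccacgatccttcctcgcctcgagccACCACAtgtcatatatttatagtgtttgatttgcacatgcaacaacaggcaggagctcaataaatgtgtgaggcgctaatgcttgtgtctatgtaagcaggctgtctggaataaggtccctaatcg
A set of 4 motifs was searched on both strands in these windows of all 7 genes and of 21770 protein-coding genes. The FOXO motif GTAAACA was in the window of Dapl1, with its first base 164 bases before the start, and in 2.72% of all windows. The RUNX motif TGTGGT was in 2835 of the 21770 windows and in those of Tcf7, as its reverse complement 126 bases before the start, and Il7r, 38 bases before it. The TCF/LEF core CTTTGA was in 14.1% of all windows and in 0 of 7 here, and the CRE TGACGTCA in 1.69% of all and 0 of 7. A match describes letters in a window and no binding. The window of Lef1 was 65.6% G and C, against 50% for Dapl1, 49.6% for Tcf7 and a median of 53.2% over all windows.

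After filtering, 27074 nuclei remained, and the libraries held between 8061862 and 16226690 UMIs (unique molecular identifiers, each a counted RNA molecule) before filtering. Pairs of libraries shared at most 0.769% of the barcodes of the smaller one. Clusters were named from marker lists, and names ending in -like are candidate identities. T-like nuclei were clustered again without the 7 genes and without the listed naive, effector and checkpoint genes. There were 1016 CD4 T-like nuclei in SAT at 2 months (362 and 654 by library) and 124 at 24 months (92 and 32), and 1230 CD8 T-like nuclei (436 and 794) against 59 (38 and 21). VAT replicate 2 held 77 and 93, whereas VAT replicate 1 held 2 and 0 and gives no levels. CD4 T-like nuclei are called CD4 nuclei below, and CD8 T-like nuclei CD8 nuclei. The labels name the cell type of every library as adipocytes, which covers none of these nuclei.

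In CD4 nuclei Cd4 stood at 503 and 584 CPM (UMIs of the gene scaled to 1000000 UMIs of the summed nuclei) at 2 months and at 304 and 518 at 24 months, beside Cd8a at 111, 98.7, 187 and 20.7, so that SAT replicate 1 at 24 months held the most Cd8a. In CD8 nuclei Cd8a was at 852, 825, 719.9 and 755 CPM and Cd4 between 35.1 and 80.3. Foxp3, the factor of regulatory T cells, was at no more than 11.5 CPM in any SAT library of either class and at 0 in all 4 sums at 24 months. The CD4 class was made of 2 clusters: one led by Il9r, Trat1, Chn2 and Cd4 (485 nuclei at 2 months and 109 at 24), and one led by Slc28a2b, St8sia1, Lef1 and Bach2 (531 and 15). The first thus held most CD4 nuclei at 24 months, and the second slightly more at 2 months.

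The 3 transcription factors with high levels in T nuclei, Lef1, Tcf7 and Satb1, were all lower at 24 months. Lef1 encodes a DNA-binding partner of beta-catenin that acts with Tcf7 in naive T cells. In CD4 nuclei Lef1 stood at 848 and 1114 CPM at 2 months and at 62.3 and 62.1 CPM at 24 months, from 1430 and 12 UMIs. Both libraries at 24 months lay far below both at 2 months, with a log2 fold change of -4.05 (SE 0.37). In CD8 nuclei Lef1 was at 852 and 1079.9 CPM against 421 and 180 CPM, from 1716 and 29 UMIs. The groups did not overlap there either, and the log2 fold change was -1.62 (SE 0.36).

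Tcf7 encodes TCF-1, which keeps naive and stem-like memory T cells in their state. Its level in CD4 nuclei was 732 and 823 CPM at 2 months, and 304 and 476 CPM at 24 months. Both older libraries were lower, with a log2 fold change of -1.20 (SE 0.27), beside -4.05 for Lef1 in the same nuclei. In nuclei gated as CD4 on their own coreceptor UMIs, Tcf7 stood at 413 and 610.5 CPM at 2 months and at 101.3 and 584 CPM at 24 months, so that the groups overlapped. The gate ran over all T-like nuclei, with regulatory T-like and other clusters outside the CD4 class. CD8 nuclei held 547 and 680.3 CPM of Tcf7 at 2 months, and 421 and 71.9 CPM at 24 months. The libraries at 24 months were far apart, with a UMI of Tcf7 in 2 of 21 nuclei of the second. The log2 fold change was -1.14 (SE 0.36), and without SAT replicate 1 at 24 months it was -3.54.

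Satb1 encodes a chromatin organizer that shapes gene programs in thymocytes and T cells. CD4 nuclei held 941 and 976 CPM of Satb1 at 2 months and 76.1 and 186 CPM at 24 months. CD8 nuclei held 935 and 1031 CPM at 2 months and 404 and 216 CPM at 24 months. In both classes every library at 24 months was below every library at 2 months, with log2 fold changes of -3.24 (SE 0.34) in CD4 and -1.64 (SE 0.36) in CD8 nuclei. Leaving out SAT replicate 1 at 24 months moved the CD8 values of Lef1 and Satb1 to -2.87 and -2.64.

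Il7r, the receptor chain that binds interleukin 7 and also serves the cytokine Tslp, did not go with the other genes. In CD4 nuclei it was at 878 and 878 CPM at 2 months and at 1501 and 1242.5 CPM at 24 months. Both older libraries were above both younger ones, with a log2 fold change of 0.58 (SE 0.23). In CD8 nuclei Il7r was at 789 and 1041 CPM at 2 months and at 1194 and 539 CPM at 24 months. The groups overlapped, the log2 fold change was -0.07 (SE 0.30), and its sign turned to 0.32 without SAT replicate 2 at 24 months.

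Dapl1 encodes a small death-associated protein-like factor, and Tmie a transmembrane protein best known as part of the channel complex of hair cells in the inner ear. Dapl1 was at 44.4 and 57.4 CPM in CD4 nuclei and at 77.3 and 102 CPM in CD8 nuclei at 2 months, from 74 and 160 UMIs. At 24 months it was at 0 in all 4 sums. Against a floor of 3 UMIs over the group, that is at least 3.37-fold lower in CD4 and at least 2.61-fold lower in CD8 nuclei. Tmie was at 68.4 and 68.8 CPM in CD4 and at 60.9 and 67.1 CPM in CD8 nuclei at 2 months, and likewise at 0 in all 4 sums at 24 months, which is at least 4.41-fold and at least 1.83-fold lower. The nuclei at 24 months were few, so each 0 still allows the level of 3 UMIs, which is 15.6 CPM over both CD4 sums and 35.4 CPM over both CD8 sums. Als2cl, which overlaps Tmie on the other strand, stood at 355 and 365 CPM in CD4 nuclei at 2 months, against 76.1 and 0 CPM at 24 months, so that it moved with Tmie.

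Npas4, an activity-induced transcription factor first described in neurons, was at low levels in these nuclei. It was at 1.85 and 2.29 CPM in CD4 and at 4.46 and 9.45 CPM in CD8 nuclei at 2 months, and at 0 at 24 months. Its levels at 2 months are under the floor of the older groups, so no fold is given. In nuclei gated as CD4 on their own coreceptor UMIs, in place of cluster names, Npas4 stood at 71.3 and 20 CPM at 2 months, from 44 and 15 UMIs, and at 0 in both libraries at 24 months. That gate ran over all T-like nuclei, among them a cluster led by Nr4a1 that held 78 UMIs of Npas4 in SAT at 2 months.

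**Figure D1:**
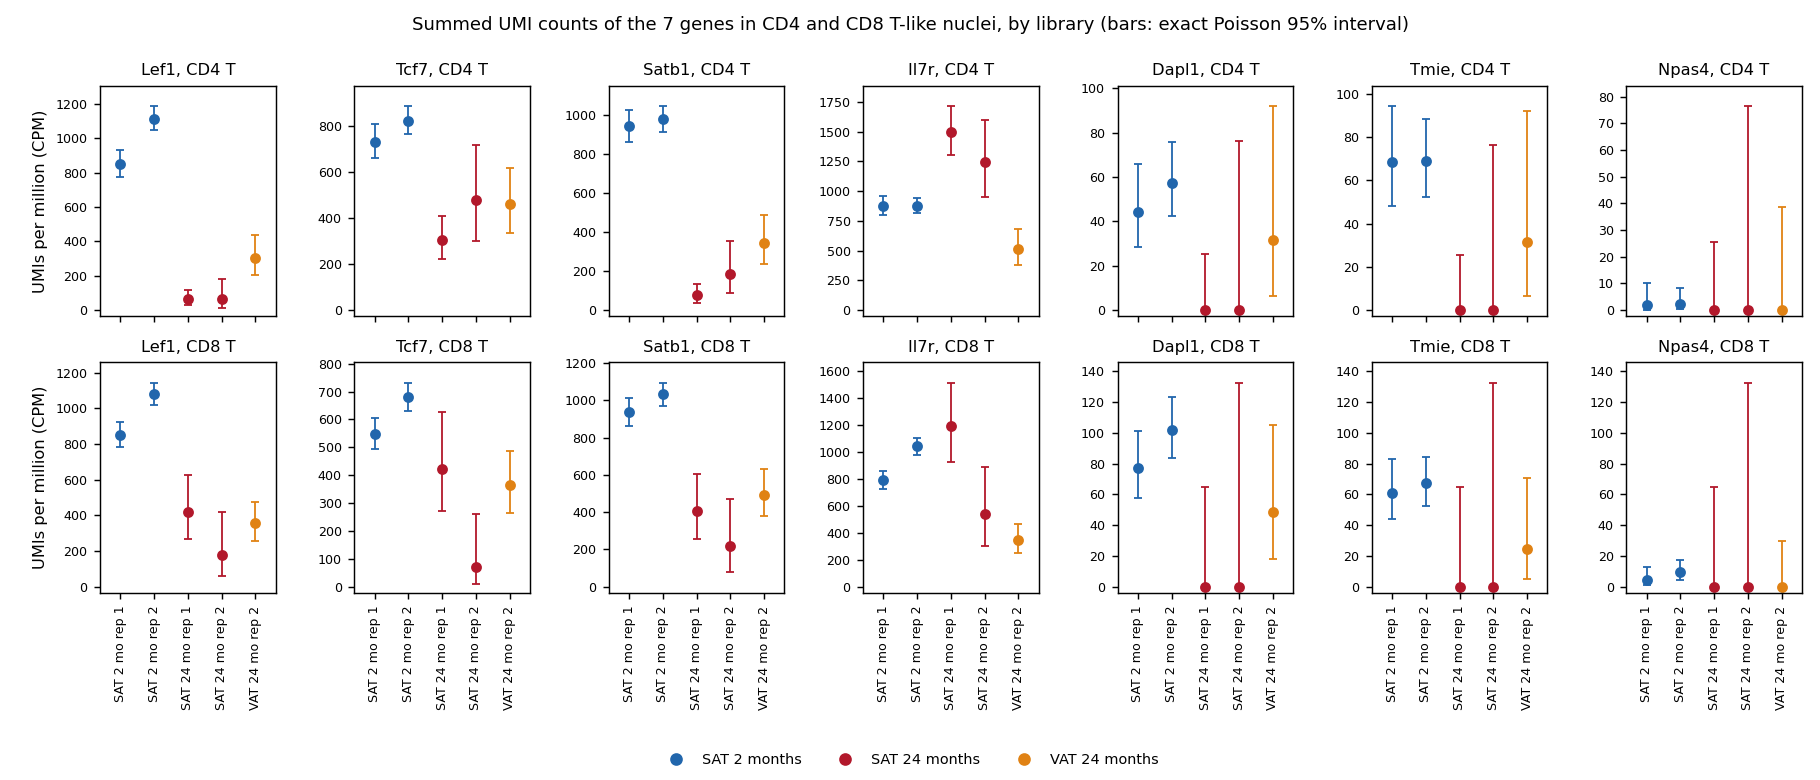
Level of each gene in CD4 T-like (upper row) and CD8 T-like nuclei (lower row), in CPM (vertical axes, each from 0 with its own scale), 1 point per library with its exact Poisson 95% interval (counting error only). Lef1, Tcf7 and Satb1 at 24 months in SAT lie below both points at 2 months in both rows, Il7r lies above them in CD4 nuclei, and Dapl1, Tmie and Npas4 are at 0.

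In CD4 nuclei named by cluster 6 of the 7 genes thus had both libraries at 24 months below both at 2 months, and in CD8 nuclei also 6 of 7. Over all genes tested the same order held for 25.3% of 5343 in CD4 and for 25.2% of 4803 in CD8 nuclei, and the opposite order, that of Il7r, for 26.7% in CD4 nuclei. Of these 6 genes 3 in CD4 nuclei (Dapl1, Npas4 and Tmie) and 2 in CD8 nuclei (Npas4 and Tmie) did not pass the filter on low counts and were at 0 at 24 months, so nothing is read from the counts against those shares. In edgeR's quasi-likelihood fits at an adjusted p under 0.05, 5.65% of the genes tested in CD4 nuclei were called lower and 5.56% higher at 24 months, and in CD8 nuclei 0.979% each way (47 and 47, but 63 higher and 40 lower with DESeq2's size factors). Of the 7, 4 passed the filter on low counts in CD4 nuclei (Lef1, Tcf7, Satb1 and Il7r) and 5 in CD8 nuclei (these and Dapl1). Lef1, Tcf7 and Satb1 were among the calls in CD4 nuclei, and Lef1 and Satb1 in CD8 nuclei. These genes were chosen on this contrast, so the calls are no evidence on them.

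The share of nuclei with a UMI gave the same order at equal depth, with every nucleus thinned to 1000 UMIs. Lef1 had a UMI in 48.3% and 57.2% of CD4 nuclei at 2 months (95% Clopper-Pearson intervals 43.1 to 53.6% and 53.3 to 61.0%), and in 5.43% and 3.12% at 24 months (1.79 to 12.2% and 0.0791 to 16.2%). Satb1 had one in 47.0% and 53.4% at 2 months and in 6.52% and 18.8% at 24 months. Tcf7 had one in 38.7% and 46.2%, against 25% and 18.8%. Il7r had one in 44.5% and 46.0% (39.3 to 49.8% and 42.2 to 49.9%), against 59.8% and 56.2% (49.0 to 69.9% and 37.7 to 73.6%), so that its intervals overlapped. Unthinned, Lef1 had a UMI in 56.9% and 63.0% at 2 months and in 6.52% and 6.25% at 24 months.

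CD8 nuclei showed the same order with less distance. Lef1 had a UMI in 48.4% and 56.3% of them at 2 months, against 34.2% (19.6 to 51.4%) and 9.52% (1.17 to 30.4%) at 24 months. Satb1 went from 49.5% and 55.4% to 26.3% and 14.3%, and Tcf7 from 36.7% and 38.8% to 26.3% and 4.76%. The interval of Lef1 in SAT replicate 1 at 24 months reached into that of replicate 1 at 2 months and lay below that of replicate 2. The interval of Tcf7 in the same older library reached into both. Dapl1 had a UMI in 7.11% and 9.07% of CD8 nuclei at 2 months, and in 0 of 38 and 0 of 21 at 24 months, which allows shares of up to 7.89% and 14.3% by the floor of 3 nuclei and 9.25% and 16.1% by the exact interval, within or above the range at 2 months, so that no lower share was detectable in single libraries.

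B-like nuclei, which should lack most of these genes, give the background of free RNA. There Lef1 had a UMI in 4.43% and 11.0% at 2 months and in 3.21% and 0% at 24 months, with median depths between 1192.5 and 1589 UMIs, against 1226 to 1424 in CD4 nuclei. The shares of CD4 nuclei with Lef1 at 24 months lie within the intervals of the B-like nuclei of the same libraries (1.05 to 7.32% and 0 to 4.62%), so at this depth the share cannot be told apart from that of B-like nuclei. The levels were 62.3 and 62.1 CPM in CD4 nuclei, from 12 UMIs, and 46 and 0 CPM in B-like nuclei. Adipocyte-like nuclei of these libraries held Lef1 between 1.25 and 4.8 CPM. Tcf7 in B-like nuclei was at 2.4% and 5.76% at 2 months and at 10.3% and 0% at 24 months, below the shares of CD4 nuclei in the same libraries. Satb1 had a UMI in 19.7% and 26.8% of B-like nuclei at 2 months and in 10.9% and 1.28% at 24 months, and its level there at 2 months was 293 and 359.6 CPM, so these nuclei give no background for Satb1.

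**Figure D2:**
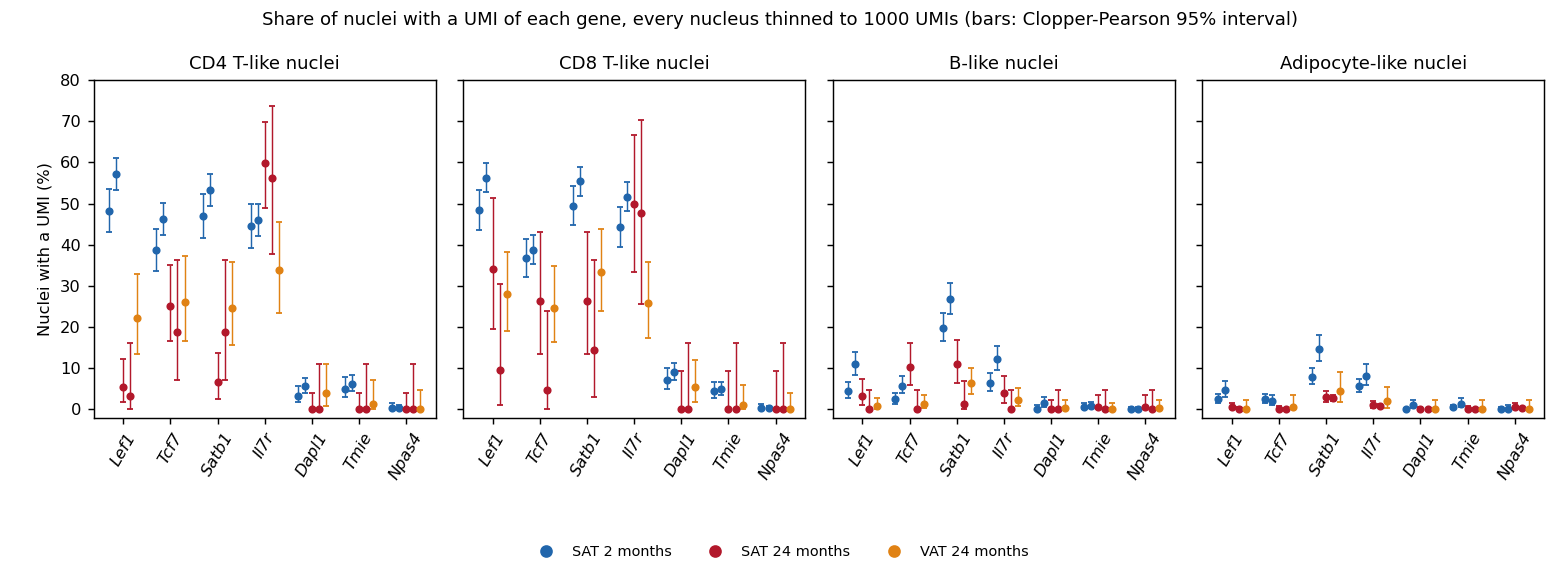
Share of nuclei with at least 1 UMI of each gene (vertical axis, percent) after thinning every nucleus to 1000 UMIs, in CD4 T-like, CD8 T-like, B-like and adipocyte-like nuclei, 1 point per library with its Clopper-Pearson 95% interval. In CD4 nuclei Lef1 goes from 48.3% and 57.2% at 2 months to 5.43% and 3.12% at 24 months in SAT, while Il7r goes from 44.5% and 46.0% to 59.8% and 56.2%.

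The genes were also counted together in single nuclei. In SAT at 2 months 25.4% and 26.3% of CD4 nuclei held UMIs of 3 of the 7 genes after thinning and 4.97% and 12.1% of 4 or more, and at 24 months 1.09% and 3.12% held 3 and 0% held 4 or more. For CD8 nuclei the shares with 3 genes were 19.7% and 26.8% against 13.2% and 4.76%, and with 4 or more 8.49% and 10.7% against 2.63% and 0%. Conversely, nuclei with a UMI of none of the 7 made up 11.0% and 8.1% of CD4 nuclei at 2 months and 25% and 34.4% at 24 months. Within the younger CD4 nuclei, Lef1 and Satb1 were found together in 95 and 227 nuclei, where the product of their shares gives 82.2 and 199.6, and Lef1 and Tcf7 in 74 and 184, where it gives 67.7 and 172.7. Pairs with Il7r lay on both sides of the product: Satb1 and Il7r were together in 74 and 172 nuclei, where it gives 75.6 and 160.6, and Tcf7 and Il7r in 63 and 135, where it gives 62.3 and 139.0. At this depth a nucleus without a UMI of a gene may still hold its RNA.

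**Figure D3:**
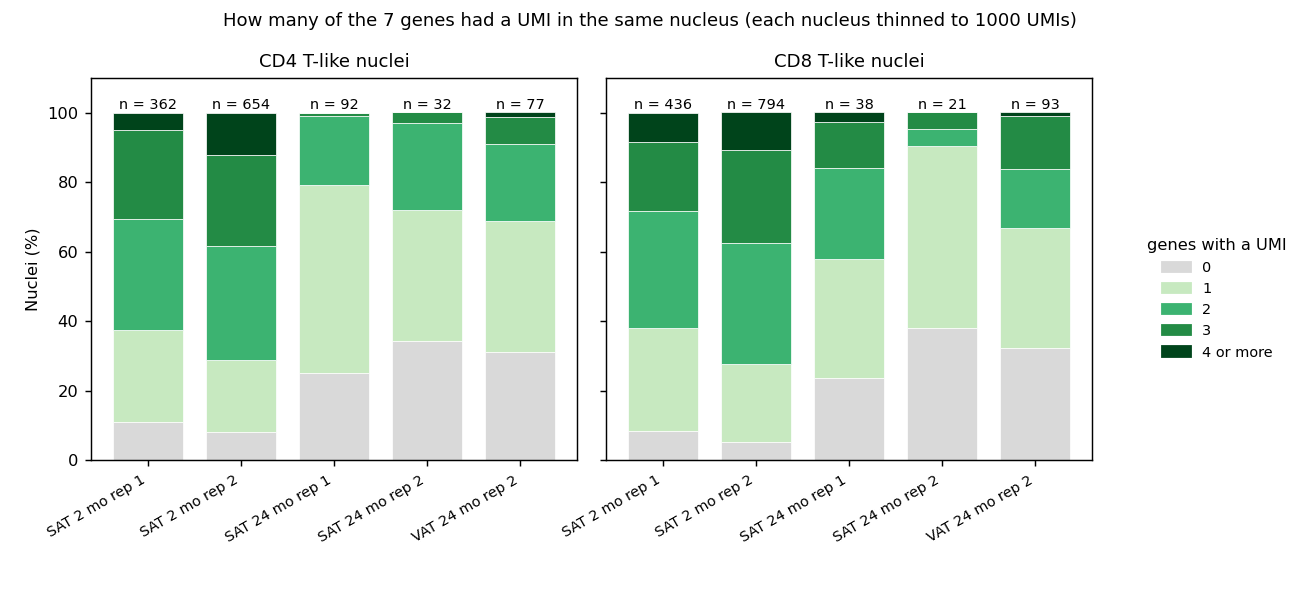
Nuclei by how many of the 7 genes had a UMI (stacked bars, percent of the nuclei of each library, whose number stands above the bar), after thinning to 1000 UMIs, in CD4 T-like (left) and CD8 T-like nuclei (right). Bars at 24 months hold more nuclei with 0 genes, 25% and 34.4% of CD4 nuclei in SAT against 11.0% and 8.1% at 2 months.

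The lower level of Lef1 was found in both clusters of the CD4 class. In the cluster led by Il9r and Cd4 alone, Lef1 was at 797.8 CPM over both libraries at 2 months (exact Poisson 95% interval 732 to 868) and at 58.0 CPM at 24 months (27.8 to 107), Satb1 at 839 and 69.6 CPM, Tcf7 at 788 and 290.1 CPM, and Il7r at 843 and 1421 CPM. Fitted on that cluster alone, an alternative added after the data were seen, the log2 fold change of Lef1 was -3.76. The cluster led by Slc28a2b and Lef1 held Lef1 at 1212 CPM at 2 months and, from 15 nuclei with 2 UMIs, at 97.7 CPM (11.8 to 353) at 24 months. In those 15 nuclei Tcf7 stood at 831 CPM (484 to 1330) and Il7r at 1564 CPM, against 788 and 910 CPM at 2 months. The CD8 class was made of 4 clusters, with 640, 410, 138 and 42 nuclei in SAT at 2 months and 39, 8, 10 and 2 at 24 months. The largest held Lef1 at 959 CPM at 2 months and 421 CPM at 24 months, and Il7r at 1094 and 1139.6 CPM, with overlapping intervals for Il7r. The next held Lef1 at 1136 and 346 CPM and Il7r at 788 and 346 CPM, from 4 UMIs of each at 24 months. The cluster of 138 and 10 nuclei was led by Scd1, Clu, Apoe, Fth1, Lyz2 and Cfd, genes of fat cells, macrophages and other cells, before Cd8a and Cd8b1. It held Lef1 at 720.5 and 0 CPM and Il7r at 757 and 952 CPM. Without that cluster, an alternative added after the data were seen that leaves 17 nuclei in SAT replicate 2 at 24 months, the CD8 values were -1.48 for Lef1, -1.05 for Tcf7, -1.44 for Satb1 and -0.14 for Il7r, and 23 genes were called in place of 94.

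VAT at 24 months had 1 library with enough T nuclei, so no comparison with SAT could be tested. In its CD4 nuclei Lef1 was at 304 CPM (exact Poisson interval in the plot of levels by library), Satb1 at 346 CPM, Tcf7 at 461 CPM and Il7r at 513 CPM. Lef1 and Satb1 lay between the SAT libraries of both ages, and Il7r below all of them. Dapl1 and Tmie were each at 31.4 CPM there, from 3 UMIs each. CD8 nuclei of that library held Lef1 at 355, Satb1 at 492, Tcf7 at 363, Il7r at 347, Dapl1 at 48.4 and Tmie at 24.2 CPM.

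Several other quantities moved with age in the same nuclei. CD4 nuclei were 24.7% and 26.7% of the T-like nuclei of SAT at 2 months and 17.1% and 15.4% at 24 months, CD8 nuclei 29.7% and 32.4% against 7.08% and 10.1%, and gamma-delta type 17-like nuclei 8.25% and 6.29% against 55.7% and 55.3%. The 7 lymph node genes (Glycam1, Ccl21a, Ccl19, Madcam1, Cr2, Fcer2a and Cxcl13) summed to 668 and 615 CPM over all nuclei of SAT at 2 months and to 205 and 66 at 24 months. Within CD4 nuclei they summed to 139 and 132 against 13.8 and 20.7 CPM, with 1 and 0 genes at 0 at 2 months and 6 of 7 at 0 in both libraries at 24 months, and in CD8 nuclei to 138 and 156 against 35.1 and 0 CPM, with Glycam1 at 0 in both older libraries. The 9 B cell genes summed to 734 and 811 against 277 and 290 CPM in CD4 nuclei, and to 771 and 859.8 against 211 and 755 CPM in CD8 nuclei, with Cd79a at 0 in both older CD4 sums. The 6 adipocyte genes summed to 308 and 213.5 against 176 and 863 CPM in CD8 nuclei, so that SAT replicate 2 at 24 months held the most. The median mitochondrial share was 3.56% and 2.54% against 4.76% and 3.43% in CD4 nuclei, and 2.15% and 0.622% against 8.87% and 3.89% in CD8 nuclei. The part of lymph node tissue, of other cells' RNA and of nuclear quality in the levels was not tested. Fewer nuclei of a naive kind and less RNA per nucleus cannot be told apart in summed counts.

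Across the 18 classes of nuclei with levels in SAT at 2 months, the genes had their highest sums in different places. Lef1 was highest in 3 T-like classes that overlapped in range: a T-like cluster led by Gm10800 (859 to 1106 CPM), CD4 (848 to 1114) and CD8 nuclei (852 to 1079.9). Satb1 was highest in the same 3, and Tcf7 in CD4 nuclei (732 to 823 CPM), which overlapped with the Gm10800-led cluster. Tmie was highest in CD4 nuclei at 68.4 to 68.8 CPM, within the range of that cluster. Dapl1 was highest in CD8 nuclei, 77.3 to 102 CPM, above the Gm10800-led cluster (62.2 to 66.4) and CD4 nuclei (44.4 to 57.4) without overlap.

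Il7r and Npas4 were highest outside the CD4 and CD8 classes. Il7r stood at 2129 to 2231 CPM in gamma-delta type 17-like nuclei, named from genes such as Il23r and the gamma-delta receptor chains, and next at 925 to 1249 in NK-like nuclei, a range that overlapped with the Gm10800-led cluster (895 to 943) and CD8 nuclei (789 to 1041). Npas4 stood at 128 and 277 CPM in a T-like cluster led by Nr4a1, Egr3 and Penk, genes induced by stimulation, against at most 38.3 CPM in any other class. That cluster held 259 nuclei at 2 months with 78 UMIs of Npas4, a level of 191 CPM (exact Poisson 95% interval 151 to 239). Its 26 nuclei in SAT at 24 months held 0, with an upper bound of 92 CPM.

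**Figure D4:**
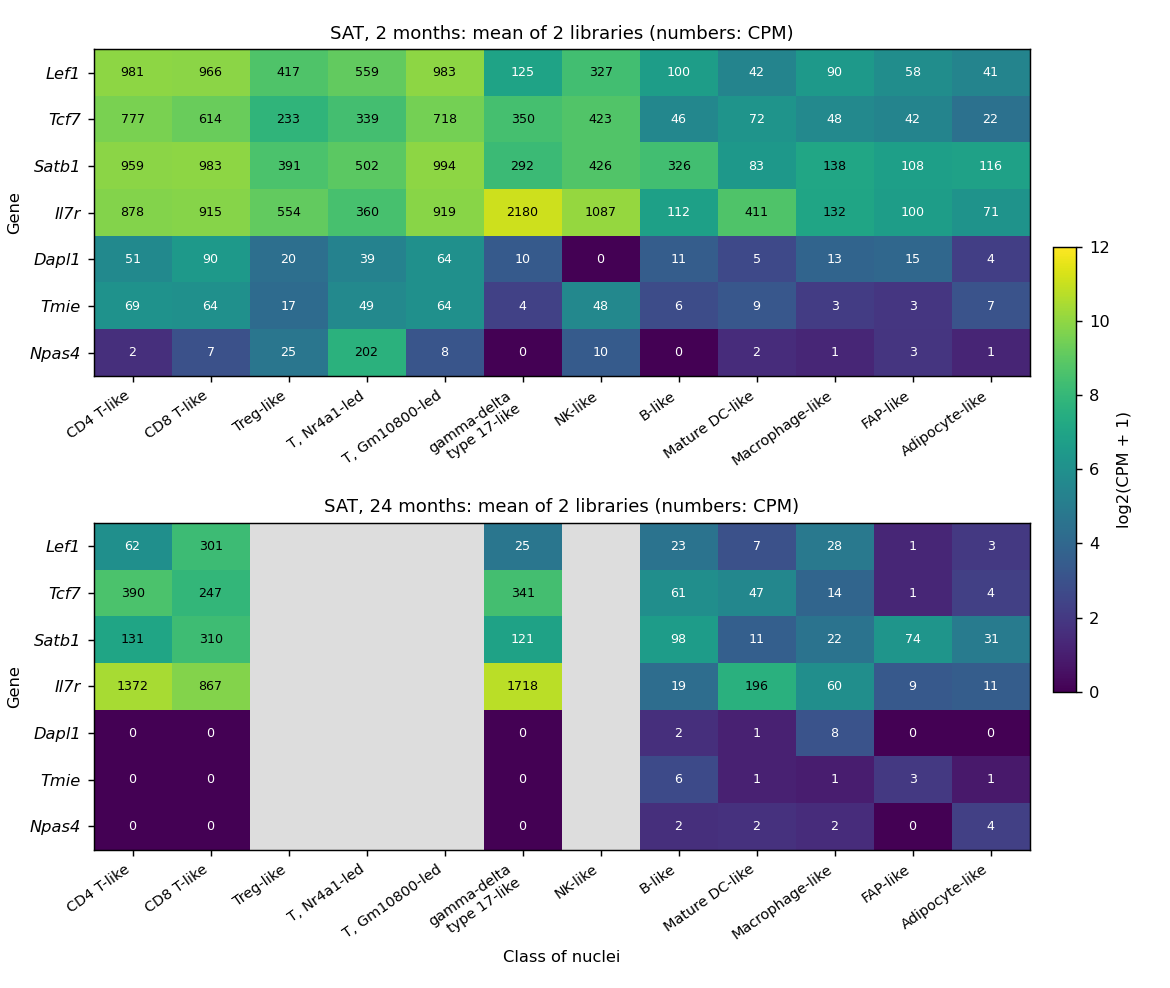
Mean level of each gene over the 2 SAT libraries at 2 months (upper panel) and 24 months (lower panel) in classes of nuclei, as colour on a log2(CPM + 1) scale with the CPM printed in each field, grey where a library held under 20 nuclei. Il7r is highest in gamma-delta type 17-like nuclei at both ages, and Npas4 in the Nr4a1-led T-like cluster at 2 months.

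Classes that the choice of the genes did not use gave tests of 4 genes, Lef1, Tcf7, Satb1 and Il7r, each in the edgeR fit of its class. In gamma-delta type 17-like nuclei Lef1 was at 118 and 131 CPM at 2 months and at 28.4 and 22.3 CPM at 24 months. Both older libraries were lower, with a log2 fold change of -2.20 (SE 0.47, edgeR adjusted p = 0.000683). Satb1 was at 241 and 343 against 126 and 117 CPM, also lower in both older libraries (log2 fold change -1.24, SE 0.30, edgeR adjusted p = 0.00465). Tcf7 was at 325 and 375 against 409 and 273 CPM and did not pass (0.02, SE 0.26, edgeR adjusted p = 0.994), nor did Il7r at 2231 and 2129 against 1972 and 1464 CPM (-0.31, SE 0.23, edgeR adjusted p = 0.728). So Lef1 and Satb1 were called lower, where 0.512% of 7225 genes were. Lef1 rested on 18 UMIs at 24 months and was under the level of the filter on low counts in both older libraries, so that it was tested for its level at 2 months and its call supports nothing as a count. DESeq2 called 0 of the 4, and without SAT replicate 2 at 2 months edgeR called 0. Lef1 in these nuclei stood at 118 CPM beside 59.7 in B-like nuclei of SAT replicate 1 at 2 months, and at 131 beside 141 CPM in replicate 2. Of RNA from other cells, the 9 B cell genes summed to 731 and 878 CPM at 2 months against 326 and 317 at 24 months, with Cd79a at 0 in both older libraries. Of the 8 B cell genes tested 3 were called lower and 6 had an unadjusted p under 0.05, with a median log2 fold change of -1.62, and the 1 lymph node gene tested was called lower (-3.01). The 7 lymph node genes summed to 109.9 and 197 CPM against 14.2 and 39 CPM. The T cell receptor list, which includes alpha-beta chains that gamma-delta T cells do not use, had a median of -0.24 over its 17 genes with 2 called lower. DESeq2 called 0 genes of these 3 lists, and the part of other cells' RNA in the calls was not tested.

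In mature dendritic-like nuclei Satb1, Lef1 and Il7r were called lower, where 0.57% of 9644 genes were (70 higher and 55 lower, but 31 and 69 with library-size scaling). Satb1 was at 67.7 and 97.8 CPM at 2 months and at 11.3 and 11.2 CPM at 24 months (log2 fold change -2.71, SE 0.45, edgeR adjusted p = 0.000158). Lef1 was at 25 and 58.2 against 9.4 and 4.5 CPM (-2.41, SE 0.59, edgeR adjusted p = 0.0212). Il7r, which dendritic cells use for Tslp, was at 365 and 458 against 241 and 152 CPM (-0.88, SE 0.23, edgeR adjusted p = 0.0335), and Tcf7 at 58.9 and 85.1 against 62.1 and 31.2 CPM did not pass (edgeR adjusted p = 0.709). Satb1 and Lef1 rested on 11 and 7 UMIs at 24 months and were likewise under the level of the filter there, so no count of calls is read as support. RNA of other cells had the same direction in these nuclei: the 16 T cell receptor genes tested had a median log2 fold change of -1.62, with 3 called lower. The 8 B cell genes tested had a median of -1.19 with 2 called lower, and 1 of 3 lymph node genes was called lower. The part of that RNA in the calls was not tested. DESeq2 called 0 of the 4, and without SAT replicate 2 at 2 months edgeR called 0.

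In B-like nuclei edgeR called 0 of the 4 genes (3 had an unadjusted p under 0.05, and DESeq2 called 0), where 0.356% of 8140 genes were called lower. Lef1 was at 59.7 and 141 against 46 and 0 CPM, Satb1 at 293 and 359.6 against 176 and 21 CPM, Il7r at 71.9 and 151 against 37.6 and 0 CPM, and Tcf7 at 28 and 64.9 against 121 and 0 CPM. Without SAT replicate 1 at 24 months edgeR called 3 lower. In macrophage-like nuclei edgeR called 0 of the 4 (2 had an unadjusted p under 0.05, DESeq2 0), and 0% of 8809 genes were called lower, with 922 genes at an unadjusted p under 0.05 and 17 called by DESeq2. With a replicate block, fitted on the SAT libraries alone, 139 genes were called higher and 113 lower there, and without a filter on low counts 181 and 119. The T cell receptor list had medians of -1.74 and -2.61 on the log2 scale in these classes, with 0 genes called by edgeR and DESeq2 and 9 of 13 and 12 of 16 at an unadjusted p under 0.05. Regulatory T-like, NK-like and conventional dendritic-like nuclei numbered under 20 in a library at 24 months and gave no comparison.

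Nuclei that are not immune cells were not fitted, and Lef1, Tcf7, Satb1 and Il7r had lower levels at 24 months in several of these classes as well. In adipocyte-like nuclei Lef1 stood between 31.9 and 50.4 CPM at 2 months and between 1.25 and 4.8 CPM at 24 months, Tcf7 between 20.6 and 22.4 against 2.74 and 4.82, Satb1 between 88.2 and 143 against 26.2 and 36.4, and Il7r between 55.2 and 87.3 against 9.28 and 12.3 CPM. In nuclei like fibro-adipogenic progenitors Lef1 was between 25.1 and 90.3 against 0 and 2.96 CPM and Il7r between 72.5 and 127.5 against 5.93 and 12.3 CPM, whereas Satb1, between 80.8 and 135 against 50.4 and 98.3 CPM, overlapped. In epithelial-like nuclei Lef1 was between 22.3 and 53.3 against 3.33 and 3.89 CPM. Npas4 had the opposite order in adipocyte-like nuclei, between 1.12 and 1.62 CPM at 2 months (4 UMIs) and between 3.43 and 4.11 CPM at 24 months (28 UMIs), and in smooth muscle or pericyte-like nuclei it overlapped, at 0 and 14.7 against 12.8 and 18.2 CPM. Whether the calls in gamma-delta type 17-like and mature dendritic-like nuclei differ from these differences was not tested, nor was the part of RNA from other cells.

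The other genes of the naive and resting state, a list of 14 that leaves out the 7, lay lower in CD4 nuclei: 11 of 14 were called lower and 0 higher, with a median log2 fold change of -1.84 against -0.01 over all genes. Actn1, an actin crosslinker, went from 534 and 646 CPM to 27.7 and 186 CPM (-3.14, SE 0.40, edgeR adjusted p = 1.24e-07), and Ccr7, the receptor for lymph node chemokines, from 269.8 and 327 to 41.5 and 0 CPM (-3.35, SE 0.48, edgeR adjusted p = 1.14e-06). Bach2, a repressor of effector genes, went from 741 and 999 to 221 and 228 CPM (-2.05, SE 0.29, edgeR adjusted p = 1.13e-06). DESeq2 called 7 of the 14 lower. In CD8 nuclei 3 of 14 were called lower, among them Actn1 (-2.27, SE 0.45) and Nsg2 (-2.42, SE 0.57), and 0 higher, with a median of -1.02, and DESeq2 called 0.

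Of the genes of effector and memory cells, 10 of 19 tested were called higher and 0 lower in CD4 nuclei, and DESeq2 called the same number. Itgae, the integrin of tissue-resident T cells, went from 55.4 and 76.9 CPM at 2 months to 657 and 642 CPM at 24 months (3.18, SE 0.27, edgeR adjusted p = 4.89e-12). Id2, an inhibitor of E proteins, went from 99.8 and 79.2 to 726.5 and 766 CPM (2.98, SE 0.26, edgeR adjusted p = 1.01e-11), Runx2 from 73.9 and 40.2 to 643 and 497 CPM (3.35, SE 0.30, edgeR adjusted p = 1.07e-11), and the nuclear receptor Rora from 102 and 71.1 to 588 and 725 CPM (2.82, SE 0.27, edgeR adjusted p = 1.32e-10). In CD8 nuclei 6 of 21 were called higher (3 by DESeq2) and 0 lower, among the 6 Id2 (3.14, SE 0.39), the chemokine Ccl5 (2.68, SE 0.37), the effector factor Tbx21 (2.43, SE 0.51) and Ahnak (1.23, SE 0.30), with edgeR adjusted p from 1.08e-12 to 0.00701. In other classes, genes of this list were called higher in B-like (4 of 12, and 3 by DESeq2) and mature dendritic-like nuclei (2 of 14, with 1 lower, and 0 by DESeq2), and whether the classes differ was not tested. T-like clusters were built without these lists, but they were named from marker lists that share genes with them. Ccl5, Itgae, Eomes and Nkg7 were among the CD8 markers, and Igfbp4 of the naive list was among the CD4 markers. The lists were chosen with earlier results of the data known.

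**Figure D5:**
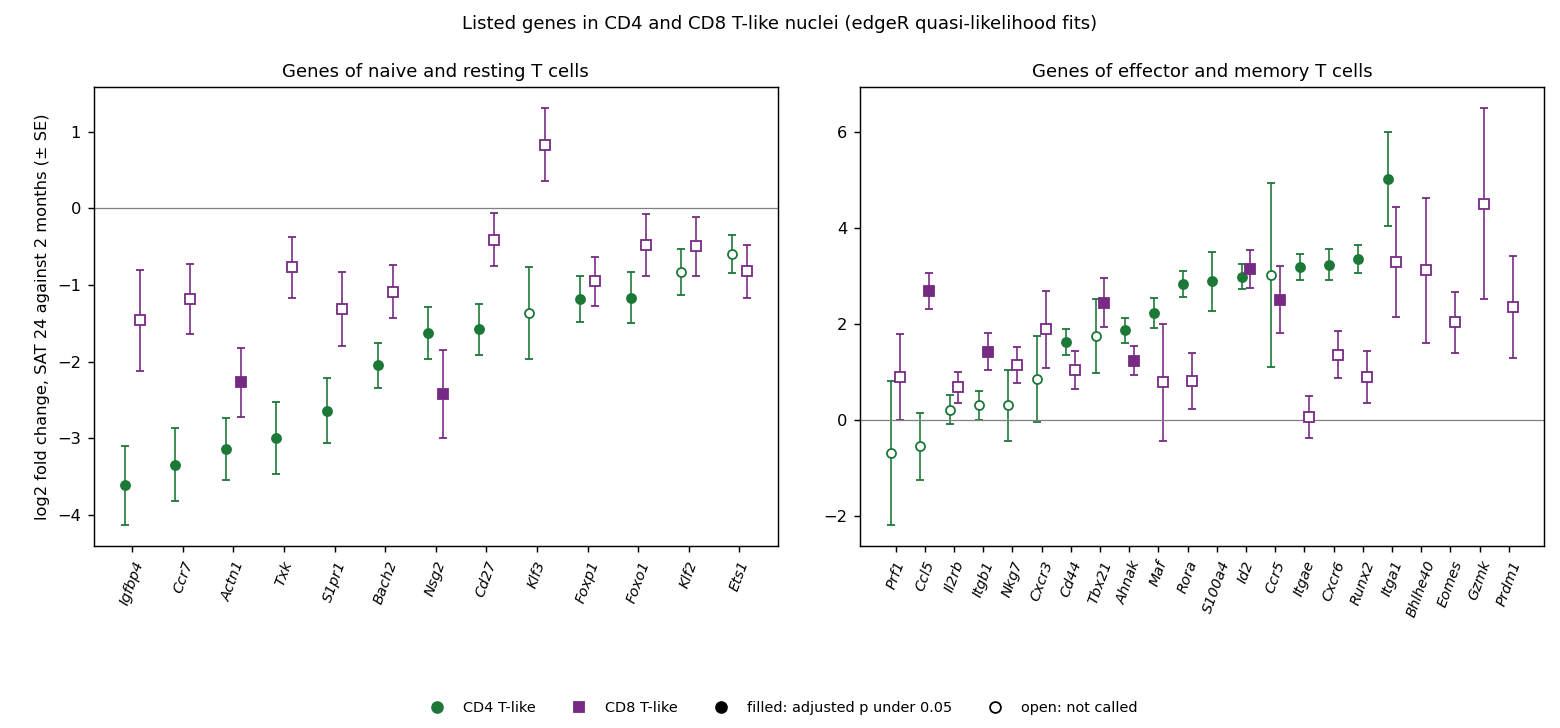
Log2 fold change of SAT at 24 against 2 months (vertical axis, with bars of 1 standard error) for genes of naive and resting T cells (left) and of effector and memory T cells (right), in CD4 T-like (circles) and CD8 T-like nuclei (squares), filled where the edgeR adjusted p is under 0.05. On the left 11 of 14 genes are called lower in CD4 nuclei and 3 of 14 in CD8 nuclei, and on the right 10 of 19 tested and 6 of 21 are called higher (1 of the 14 is not drawn, nor in CD4 nuclei 1 of the 19 that was at 0 in a group).

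Partners of the 7 genes were called in both directions in CD4 nuclei, where 5.56% of all genes were called higher and 5.65% lower. Of 10 tested cofactors and relatives of TCF/LEF factors, 1 was called higher and 1 lower in CD4 nuclei: Axin2, a target and brake of Wnt signalling, went from 61 and 37.9 to 159 and 124 CPM (1.54, SE 0.47, edgeR adjusted p = 0.0255), and the beta-catenin cofactor Bcl9 from 77.6 and 115 to 34.6 and 0 CPM (-1.997, SE 0.65, edgeR adjusted p = 0.0362). DESeq2 called neither. In CD8 nuclei 0 of 9 were called by edgeR or DESeq2, with 1 at an unadjusted p under 0.05. Leaving out 1 gene at 0 in a group, the largest fitted values were -1.27 (SE 0.92) for Ctnnb1 and 1.25 (SE 1.06) for Tcf7l2.

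In the interleukin 7 pathway 2 of 8 genes tested in CD4 nuclei were called higher, both of them negative regulators that STAT5 induces: Cish, from 20.3 and 40.2 to 269.8 and 352 CPM (3.12, SE 0.41, edgeR adjusted p = 1.64e-07), and Socs1, from 20.3 and 40.2 to 208 and 269 CPM (2.74, SE 0.43, edgeR adjusted p = 8.79e-06). The median of the 8 was -0.01. In CD8 nuclei 0 of 6 were called by edgeR or DESeq2, with 4 at an unadjusted p under 0.05, Cish standing at 14.9 and 16.1 against 17.6 and 288 CPM and Pim1 at 49 and 32.1 against 141 and 108 CPM. Il7 itself, the ligand, was found in smooth muscle or pericyte-like nuclei at 158 and 191 CPM at 2 months and at 83.3 and 54.5 CPM at 24 months, from 59, 78, 13 and 9 UMIs, and was not tested there. That class joined a cluster led by Cxcl14 and Myh11 with another led by Pcdh15, Csmd1, Ccl21a, Cxcl13 and Ccl19. The second, with lymph node genes among its leading genes, gave 79 and 126 nuclei of SAT at 2 months and 40 and 30 at 24 months. The first gave 47 and 62 against 36 and 61. Which of them held Il7 was not tested. In endothelial-like nuclei of VAT replicate 2, a class made of a cluster led by Mmrn1, Ccl21a and Flt4, Il7 stood at 284 CPM.

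The remaining lists had few genes that could be tested. Of the relatives of Dapl1, Satb1, Npas4 and Tmie, 1 of 5 tested was called in CD4 nuclei: Arnt2, which pairs with Npas4 and related factors, went from 7.4 and 1.1 CPM to 187 and 228 CPM (5.57, SE 0.77, edgeR adjusted p = 5.77e-07), while Pcdh15, a partner of Tmie in the ear, was at 38.8 and 48.2 against 27.7 and 20.7 CPM (-0.84, SE 0.83). In CD8 nuclei 0 of 2 relatives passed (Pcdh15 0.45, SE 0.80; Arnt -0.23, SE 0.69), with 0 at an unadjusted p under 0.05 and 0 by DESeq2. Checkpoint genes gave 0 calls of 3 in CD4 (Entpd1 1.43, SE 0.94; Ctla4 -0.65, SE 0.53) and 0 of 4 in CD8 nuclei (Lag3 2.87, SE 1.62; Cd160 1.94, SE 0.92), with 0 and 1 at an unadjusted p under 0.05 and 0 by DESeq2. Immediate early genes gave 0 of 3 in CD4 (Ier2 0.68, SE 0.46; Jund 0.25, SE 0.34) and 0 of 2 in CD8 nuclei (Junb -0.40, SE 0.72; Jund 0.24, SE 0.54), with 0 at an unadjusted p under 0.05 and 0 by DESeq2.

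Genes of the T cell receptor complex and its signalling, a list that includes the alpha-beta chains Trac, Trbc1 and Trbc2, gave calls in CD4 nuclei. There 8 of 17 were called lower (median -0.56), and 2 by DESeq2, among the 8 Trbc2 (-1.40, SE 0.26), Trac (-1.36, SE 0.27), Cd3d (-1.56, SE 0.33) and Lat (-0.995, SE 0.26), with edgeR adjusted p from 0.000151 to 0.00632. Trbc2, Trac and Cd3d thus had fitted values beyond that of Tcf7 in the same nuclei (-1.20). In CD8 nuclei 0 of 17 were called by edgeR or DESeq2 (median -0.47, 3 at an unadjusted p under 0.05), with Cd5 at -1.23 (SE 0.40) and Trac at -0.85 (SE 0.35). The 17 genes summed to 13292 and 13249 CPM in CD4 nuclei at 2 months and 10828 and 9649.8 at 24 months. Of 5 genes of immature thymocytes, 1 was tested, Cd1d1 (-0.51, SE 0.49 in CD4 and -0.47, SE 0.80 in CD8 nuclei, neither called), and Rag1 and Rag2 were at 0 in every CD4 and CD8 sum.

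Of RNA from other cell types, 2 of 4 B cell genes tested were called lower in CD4 nuclei, among them Ighm (-3.55, SE 0.54, edgeR adjusted p = 4.61e-06), and 0 of 4 were called in CD8 nuclei (Ighm -1.35, SE 0.48; 1 at an unadjusted p under 0.05, 0 by DESeq2). Adipocyte genes gave 0 calls of 4 in CD4 (Plin4 0.29, SE 0.75; Cidec 0.16, SE 0.90) and 0 of 5 in CD8 nuclei (Plin1 1.33, SE 1.11; Lipe 0.49, SE 0.75), with 0 at an unadjusted p under 0.05 and 0 by DESeq2. None of the macrophage or lymph node genes passed the filter on low counts. Macrophage genes summed to 81.3 and 55.1 against 6.92 and 104 CPM in CD4 nuclei.

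Over 91 sums of a class in a library, from 20 classes, the genes most like each of the 7 were named by Pearson's r of log2(CPM + 10) over 12147 genes. Lef1 was closest to Cd5 (0.908), Cd27 (0.905) and Lck (0.903), and Il7r to Cd96 (0.878), Cd247 (0.863) and Tcf7 (0.857). Skap1 (0.902) and Trbc1 (0.898) were among the 3 genes closest to Tcf7. Satb1 was closest to Lef1 (0.836), Dgka (0.82) and Lck (0.817), and Dapl1 to Slc28a2b (0.811), Lef1 (0.75) and Cd8b1 (0.737). Npas4 was closest to Gm49180 (0.795), Nrn1 (0.676) and Egr2 (0.617), and Tmie to Lypd6b (0.756), Slc28a2b (0.662) and Als2cl (0.626), the gene whose span reaches over exon sequence of Tmie. Among the 7 themselves r ran from 0.0413 (Il7r and Npas4) to 0.857 (Tcf7 and Il7r). These sums share libraries and depth, and sums of 1 library share its free RNA, so r is given as a description.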

How the data were processed

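Single nuclei of SAT and VAT were captured on Singleron chips by the authors and aligned to GRCm39 with Celescope (version and gene annotation not given in the sources used here). What was deposited is, for each library, a matrix of UMI counts that carries no normalization. The filters of the study were kept: more than 500 genes, more than 1000 UMIs, and a mitochondrial share below 15%. Counts were log-normalized, 1000 variable genes and 30 principal components were taken, corrected by an own implementation of Harmony, and clustered with Leiden on 20 shared neighbours (resolution 2.0, T and NK nuclei again at 1.5, seed 1) in Python 3.11.15 with scanpy 1.11.5. Clusters were named from marker lists. The rules that leave a cluster unnamed were revised after clusters had been looked at, and a CD4 or CD8 name required the coreceptor to be at least 2 times the other. The second CD4 cluster is near that limit (Cd4 469 against 226 CPM of Cd8a and Cd8b1). The limit was applied to whole clusters, and the CD4 sum of SAT replicate 1 at 24 months does not meet it (Cd4 304, Cd8a 187 and Cd8b1 55.4 CPM). Scrublet marked 0.0519% to 0.562% of nuclei per library and no CD4 or CD8 nucleus, so it had not worked and doublets were not removed.

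Counts were summed per library and class, with at least 20 nuclei, since nuclei are not replicates. R 4.3.3 with edgeR 4.0.16 fitted the 3 groups together (quasi-likelihood, TMM, filterByExpr), with Benjamini-Hochberg adjustment within class and a call at an adjusted p under 0.05. DESeq2 1.42.0 was an alternative. SE is the absolute log2 fold change divided by the square root of F. The fits were tested on simulated data. Intervals are exact 95% and cover counting error only, as does the floor of 3 counts. The study says that 2 mice per age were used, and labels do not tie libraries to animals, so p-values measure the spread between libraries, which may be technical. Named genes were the 7, up to 4 called genes per direction and list by adjusted p (where under 2 were called, those with the largest changes), the 3 most alike, and class markers. The 7 genes and the lists were chosen with earlier results of these data known. VAT at 2 months is not analysed here. Some genes of the lists are counted in the totals but not reported here by name.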

Additional observations from a re-analysis of the deposited data

Results flagged for a closer look

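Il7r was above both 2-month libraries in CD4 nuclei of SAT at 24 months (log2 fold change 0.58) and below both of them in the 4 immune classes fitted besides CD4 and CD8 nuclei, so that each library lay on one side in CD4 nuclei and on the opposite side in those 4. In CD8 nuclei the groups overlapped (log2 fold change -0.07). Classes outside the immune system, where Il7r was also low at 24 months, were not fitted. The difference between the log2 fold changes was 0.89 against gamma-delta type 17-like nuclei (-0.31), 2.74 against B-like nuclei (-2.16), 1.78 against macrophage-like nuclei (-1.20) and 1.46 against mature dendritic-like nuclei (-0.88). The difference was not tested in any of the 4. In B-like and macrophage-like nuclei Il7r rested on 9 and 31 UMIs at 24 months, and the genes of the T cell receptor complex lay lower there as well, with medians of -1.74 and -2.61.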

How the results depend on the processing

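Lef1, Tcf7 and Satb1 kept a negative log2 fold change in CD4 and CD8 nuclei, and Il7r a positive one in CD4 nuclei, under every alternative run. Over these values and alternatives 53 values in CD4 and 48 in CD8 nuclei moved by less than the spread between libraries, 7 and 4 moved by more, and 0 and 4 changed sign. The count of genes called moved more. In CD4 nuclei it was 599, 153 with DESeq2, 107 with T nuclei gated on their own UMIs of Cd4, Cd8a and Cd8b1 (16 genes instead of 26 in the lists of T cell states and pathways, those of the T cell receptor and of other cells left out), and 184 to 824 with 1 SAT library left out. In CD8 nuclei it was 94, 22 with DESeq2, 148 without a filter on low counts, 152 gated, 23 without the cluster led by Scd1 (added after the data were seen, with 15 nuclei as the minimum), and 9 to 171 with 1 library left out, and calls in these lists went from 9 to 3, to 15 gated, to 5 without that cluster, and to 2 to 13. The filter setting shifted the median log2 fold change of all genes to -1.36 in CD4 and -1.50 in CD8 nuclei. Of calls in CD4 nuclei 50.4% were lower, against 44 of 153 with DESeq2, and in CD8 nuclei 113 of 148 without the filter and 3 of 22 with DESeq2. Il7r in CD8 nuclei turned to 0.0243 with DESeq2's size factors and 0.0453 gated, and ran from -1.21 to 0.32 with 1 library left out. Tcf7 in gamma-delta type 17-like nuclei turned to -0.000946 with DESeq2 and -0.0158 with library sizes, and ran from -0.36 to 0.25 with 1 library left out. Genes called of the 4 tested went from 2 to 0 (DESeq2), 1 (no filter) and 0 to 2 (left out) in gamma-delta type 17-like nuclei, from 0 to 2 (no filter) and 0 to 3 in B-like nuclei, from 0 to 1 (no filter) in macrophage-like nuclei, and from 3 to 0 (DESeq2) and 0 to 3 in mature dendritic-like nuclei. The causes were not tested.

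Libraries of both ages share replicate numbers, but the deviations of same-numbered libraries correlated only between -0.0867 and 0.0449 over classes, so they share a number alone. Fits with a replicate block also left out VAT, so they used the SAT libraries alone. With the block 472 genes were called in CD4 and 48 in CD8 nuclei. Without it these libraries gave 365 higher and 287 lower in CD4, and 89 and 50 in CD8 nuclei. The block fits called 1 of the 4 in mature dendritic-like nuclei (60 genes higher and 40 lower of 8032) and 1 in macrophage-like nuclei (139 higher and 113 lower of 8205, against 0 in the main fit with VAT). For classes other than CD4 and CD8 the SAT libraries were not fitted without a block, so its part is not known. Tcf7 in gamma-delta type 17-like nuclei was at -0.0017 with the block. Of the intended settings 2 were not run: nuclei with over 1500 UMIs (9 CD4 and 3 CD8 nuclei remained in SAT replicate 2 at 24 months) and removal of called doublets. With 32 and 21 nuclei in that library, low genes could not be measured there.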
